A study of Mus musculus with 6 samples.

Results

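The splicing regulators examined here are the SR proteins (Srsf genes), the hnRNP proteins, the SR-like TRA2 proteins, the CLK kinases, the SF3A and SF3B subunits of the U2 snRNP, and the SRRM coactivators. Members were taken by symbol from the table of gene counts, which gave 48 of the 14051 genes listed: 11 SR proteins, 20 hnRNP proteins, 2 TRA2, 4 CLK kinases, 3 SF3A, 6 SF3B and 2 SRRM genes. No measured value entered this rule, but the gene families were chosen with earlier results of these data known. None was at 0 in any library, and all 48 were among the 11649 genes tested.

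SR proteins bind exonic enhancers through RNA recognition motifs and recruit the spliceosome through arginine- and serine-rich tails. The hnRNP proteins coat nascent transcripts and often oppose exon inclusion, and the CLK kinases phosphorylate SR proteins and release them from nuclear speckles. In T cells these proteins set alternative splicing of transcripts such as Ptprc, whose CD45 isoforms change on activation under the control of Hnrnpll, and many of them limit their own level by splicing in exons that lead to nonsense-mediated decay (NMD).

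The 6 bulk RNA-Seq libraries were made from donor-derived CD8+ T cells in the BM of B6D2F1 recipients, which were transplanted with purified B6.CD45.1 T cells. The 3 GC-treated libraries came from recipients given dexamethasone at 5 mg/kg/day i.p. from day -1 to day 5, and the 3 vehicle-treated libraries from recipients given methyl-β-cyclodextrin on the same days. Both groups were collected on day 5, shortly after an i.v. anti-CD45 PE antibody that labels cells within vessels, and the labelled cells of donor origin were sorted from the BM of several pooled mice. It is not stated if the libraries of a group came from separate pools, nor how old the recipients were. The comparison asks which transcripts differ in circulating donor CD8+ T cells after GC exposure. In bulk samples fewer cells of a type and less RNA per cell cannot be told apart.

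The libraries held 60949593 to 76888118 reads on listed genes, of which the 48 splicing regulators took 1.82% to 1.94%. The summed level of 9 CD8 T cell markers was 468779 to 576688 normalized counts in the GC-treated and 471280 to 499839 in the vehicle-treated libraries, with Lck the highest. Neutrophil markers, 8 of the 10 listed, summed to 1735 to 12242 in GC-treated and 337 to 3870 in vehicle-treated libraries, with Ltf the highest and Ltf, Mmp8 and Retnlg at 0 in at least 1 library. Summed erythroid markers were 264 to 349 against 376 to 771 (Hba-a1 highest), CD4 markers 706 to 992 against 1117 to 1297 (Foxp3 highest), monocyte and macrophage markers 1260 to 1590 against 1560 to 1730 (C1qb highest) and B cell markers 942 to 1245 against 871 to 1204 (Cd79b highest), all in normalized counts. These sums held 5 of 7 erythroid, 4 of 4 CD4, 6 of 8 monocyte and macrophage and 3 of 5 B cell markers listed. Of the CD4 markers 2 were lower in every GC-treated library than in any vehicle-treated one (50%, beside 6.4% of all genes), and 2 overlapped. Foxp3 itself had a log2 fold change of -0.032. The part of other cell types in the splicing regulators was not tested. The libraries of a group were not alike. By chi-square per degree of freedom over genes, GC-treated 1 differed from the 3 vehicle-treated libraries by 21.2 to 36.0. It differed more from GC-treated 2 (105.0) and GC-treated 3 (151.4). For the members with the largest differences the fold change is therefore also given without GC-treated 1. That library was picked from these same counts, so larger differences without it are to be expected and give no separate support.

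Genes of these families make several kinds of transcript, which the deposited counts add together. In Gencode M39, 40 of the 48 members have at least 1 transcript annotated as an NMD target and 37 have one with a retained intron. In 22 members an exon that lies inside an intron of the canonical transcript holds the stop codon of an NMD transcript. The sequences shown are the last bases of such exons up to that stop (at most 30 bases, 5′ to 3′, in GRCm39, stop codon in capitals), for the 4 SR proteins whose groups did not overlap, and for the most abundant SR and TRA2 genes.
Srsf6, chr2:162774857-162774886, plus strand: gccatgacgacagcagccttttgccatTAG
Srsf7, chr17:80512483-80512510, minus strand: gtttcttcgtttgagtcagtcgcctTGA
Srsf9, chr5:115466458-115466487, plus strand: cctgggttggagattacggattcacagTAG
Srsf11, chr3:157730352-157730381, minus strand: aaagcagcagtaaaaaaaaaatactctTGA
Srsf3, chr17:29258432-29258461, plus strand: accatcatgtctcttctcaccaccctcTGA
Tra2b, chr16:22077931-22077960, minus strand: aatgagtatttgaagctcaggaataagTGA

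The Tra2b exon shown spans chr16:22077736-22078011 and belongs to 13 annotated NMD transcripts, and the Srsf3 exon spans chr17:29258428-29258883 and belongs to 12. A count per gene includes reads from productive and from NMD transcripts alike, so the values below are totals over both and carry no information on exon inclusion.

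Levels of the 48 members covered a wide range when normalized counts were divided by the length of the canonical transcript. Hnrnpa2b1, an RNA-binding protein of nuclear pre-mRNA packaging and export, was highest at 42909 ± 2841 normalized counts per kb (SD, n = 6), and Srsf12 was lowest at 30.2 ± 10.2. The median of the members was 4893 per kb, and 45 of 48 lay above the median of 564 per kb over 11395 genes with a canonical transcript. Hnrnpk (21945 ± 1032 per kb) and Hnrnpf (20426 ± 748) followed Hnrnpa2b1 and were closer to each other than the sum of their SDs. Hnrnpa1 (17111 ± 1958), Hnrnpu (17048 ± 515) and Srsf3 (16791 ± 928) came next and were not separated by their spread. Srsf3 was the highest SR protein, Tra2b (9155 ± 590) the higher TRA2 gene, Sf3b1 (9000 ± 582) the highest SF3B subunit and Sf3a3 (8585 ± 616) the highest SF3A subunit. The 4 CLK kinases lay close together, from Clk3 at 2204 ± 170 to Clk1 at 2881 ± 319 per kb. Levels per kb depend on which transcript is annotated as canonical; that of Hnrnpr is 21475 bases long and its level (600.0 per kb) rests on that choice.

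**Figure D1:**
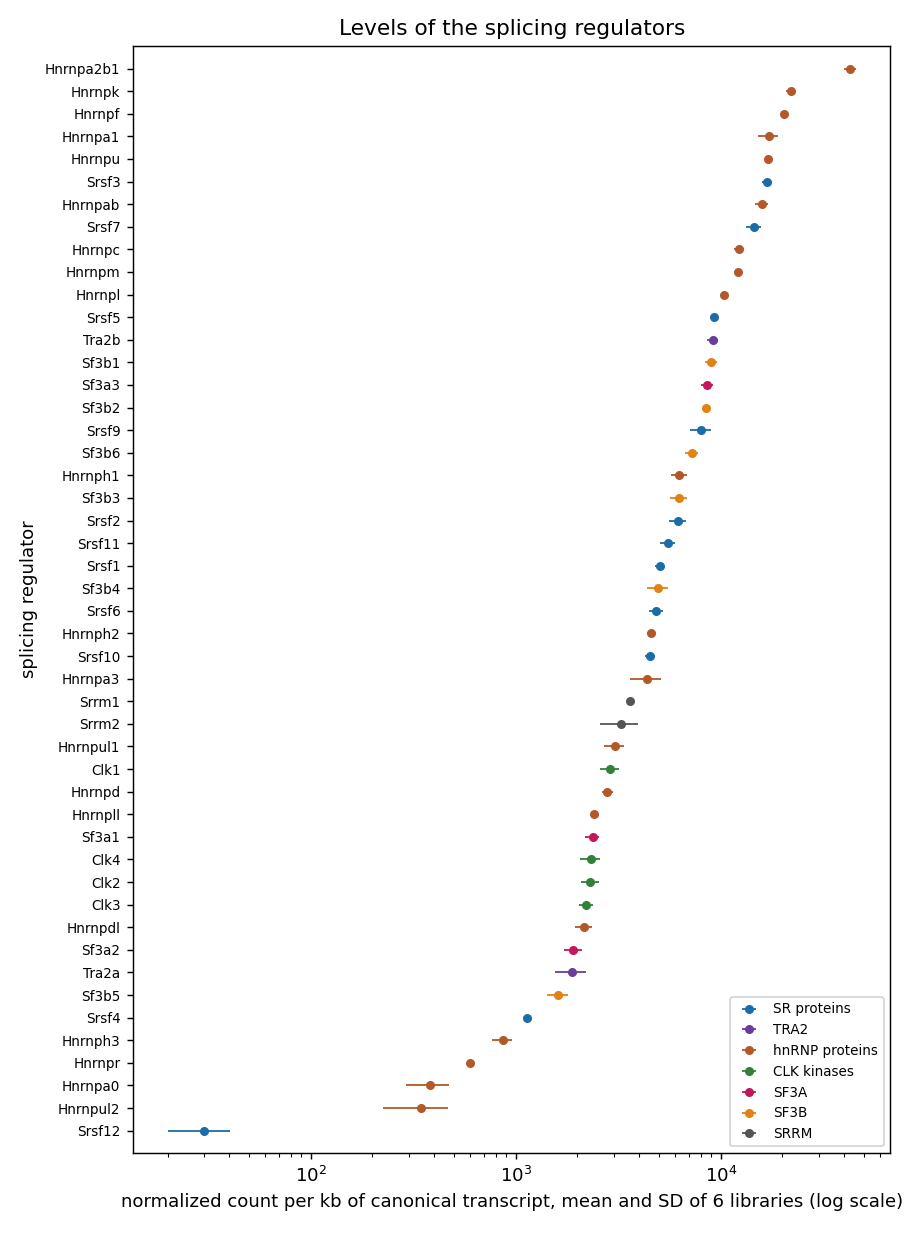
Normalized count per kb of canonical transcript for the 48 splicing regulators (log axis), with points for the mean and bars for the SD of 6 libraries, coloured by family. Hnrnpa2b1 is highest at 42909 per kb, Srsf12 lowest at 30.2 per kb, and the hnRNP and SR genes span most of the range.

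No splicing regulator differed between GC-treated and vehicle-treated libraries after adjustment. By limma on log2(normalized count + 1), 0 of 48 members and 0 of 11649 genes (0.0%) had an adjusted p under 0.05, and the lowest adjusted p of a member was 0.62. edgeR and DESeq2 on the recovered reads also called 0 members. Before adjustment, limma gave p under 0.05 for 3 members higher in GC-treated libraries (6.25% of members, beside 2.12% of all genes) and 3 lower (6.25%, beside 5.07%). The counts were 3 higher and 1 lower by edgeR (2.28% and 3.79% of all genes) and 3 higher and 3 lower by DESeq2 (2.41% and 4.63%). With 3 libraries on each side, the smallest two-sided p that exact permutation allows for a single gene is 0.1.

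Fold changes were evenly divided in sign and ran from -0.65 to 0.24 on the log2 scale. Of the 48 members, 24 had a positive and 24 a negative log2 fold change, with a median of 0.00081 beside -0.0079 for all genes tested. The 95% interval of the fold change lay within a 1.5-fold change in either direction for 42 of 48 members (87.5%, beside 59.1% of all genes tested). The share is not particular to the members. It was 89.4% for core spliceosome genes and 85.1% for other splicing regulators, lists that are given below. It was 88.2% for NMD genes and 82.4% for kinases, phosphatases and import factors of SR proteins. The 6 members with wider intervals were Srsf12, Tra2a, Hnrnpa0, Hnrnpa3, Hnrnpul2 and Srrm2, all with negative log2 fold changes. The coefficient of variation over 6 libraries had a median of 7.78% for the members and 13.2% for all genes. Among the 47 members with a mean of at least 1000 normalized counts it was 7.73%, and 33 of them lay below the median of the 7206 genes at that level.

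**Figure D2:**
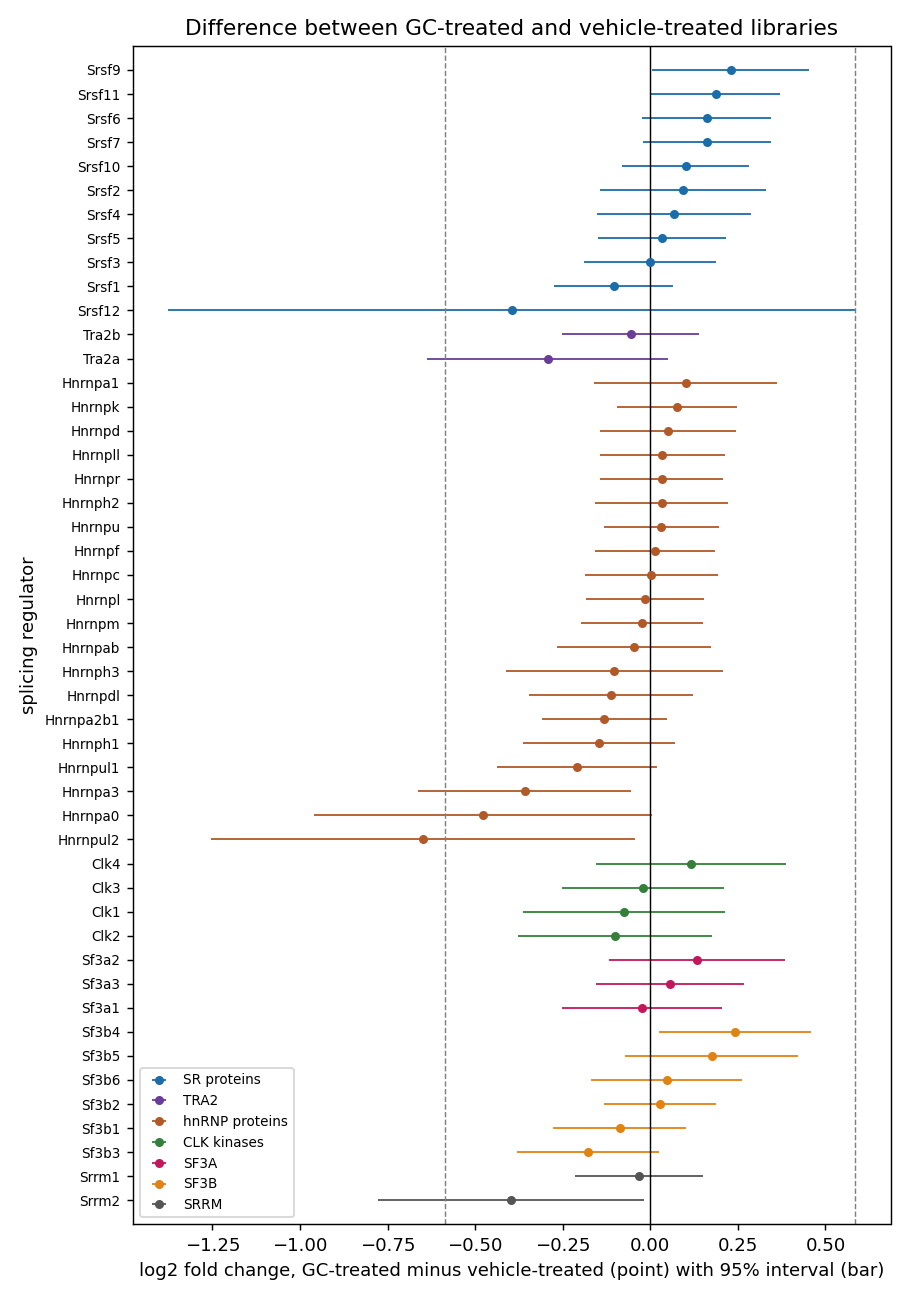
Log2 fold change of each splicing regulator, GC-treated minus vehicle-treated (points), with the 95% interval from limma (bars), by family; dashed lines mark a 1.5-fold change. Intervals of 42 of 48 members lie inside the dashed lines, and 24 of 48 points lie on each side of 0.

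Among the SR proteins, 8 of 11 had a positive log2 fold change and 4 of 11 (36.4%) were higher in each GC-treated library than in any vehicle-treated one. Over all families the groups did not overlap for 5 members higher in GC-treated libraries (10.4% of members, beside 6.4% of all genes) and for 1 lower (2.08%, beside 6.4%). Srsf9, an SR protein with a short arginine- and serine-rich tail, had 9244, 9730 and 11450 normalized counts in GC-treated 1 to 3, against 8410, 8496 and 8945 in vehicle-treated 1 to 3. GC-treated 3 stood highest and the other GC-treated libraries lay just above the vehicle-treated ones. The log2 fold change was 0.23 ± 0.099 (SE; limma, adjusted p = 0.62), and it ran from 0.14 without GC-treated 3 to 0.29 without GC-treated 1.

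Srsf11, an SR-related protein that binds U2AF and takes part in splice site recognition, had 17164, 18981 and 19158 normalized counts in the GC-treated and 15783, 15862 and 16910 in the vehicle-treated libraries. The groups did not overlap, though GC-treated 1 exceeded vehicle-treated 3 by little, and the log2 fold change was 0.19 ± 0.081 (SE; limma, adjusted p = 0.62) and 0.24 without GC-treated 1. Srsf7, an SR protein with a zinc knuckle that also acts in mRNA export, had 34180, 38966 and 38997 against 32966, 33580 and 33556. Here GC-treated 1 lay next to the vehicle-treated libraries and the other GC-treated libraries stood apart, for a log2 fold change of 0.16 ± 0.081 (limma, adjusted p = 0.62), which was 0.22 without GC-treated 1. Srsf6, an SR protein that promotes exon inclusion, had 22766, 24373 and 25687 against 20578, 22442 and 22056. The gap between GC-treated 1 and vehicle-treated 2 was the smallest between the groups. The log2 fold change of Srsf6 was 0.16 ± 0.081 (limma, adjusted p = 0.62), or 0.21 without GC-treated 1. Without GC-treated 3 the log2 fold changes were smaller, at 0.16 for Srsf11, 0.13 for Srsf7 and 0.12 for Srsf6.

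The exons of Srsf6 (chr2:162773299-162780234) and Srsf7 (chr17:80507501-80514879) overlap no other annotated gene. Those of Srsf9 overlap Gatc and those of Srsf11 overlap Lrrc40, both on the other strand, and because the library kit does not mark strand their counts are less certain. Of the 48 members, 36 have exons that overlap a gene on the other strand, 2 overlap genes on the same strand only, and 10 overlap none.

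The other SR proteins had overlapping groups. Srsf3, the most abundant SR protein per kb and a factor in splicing and mRNA export, had 47588, 45556 and 52963 normalized counts in GC-treated and 46576, 49245 and 50135 in vehicle-treated libraries. Its log2 fold change was -0.00072 ± 0.083 (SE), with a 95% interval from -0.19 to 0.19. Srsf10 (0.10), Srsf2 (0.092), Srsf4 (0.068) and Srsf5 (0.033) had positive log2 fold changes, and Srsf1, a general splicing factor that binds exonic enhancers, had -0.10 (limma, adjusted p = 0.65). Srsf12, at 40 to 129 normalized counts, had the widest interval of all members, from -1.38 to 0.59 on the log2 scale. By library, the median deviation of the 11 SR proteins from their gene means was highest in GC-treated 3 (0.12 on the log2 scale) and lowest in vehicle-treated 1 (-0.097), and GC-treated 3 held the highest value of 7 of the 11.

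**Figure D3:**
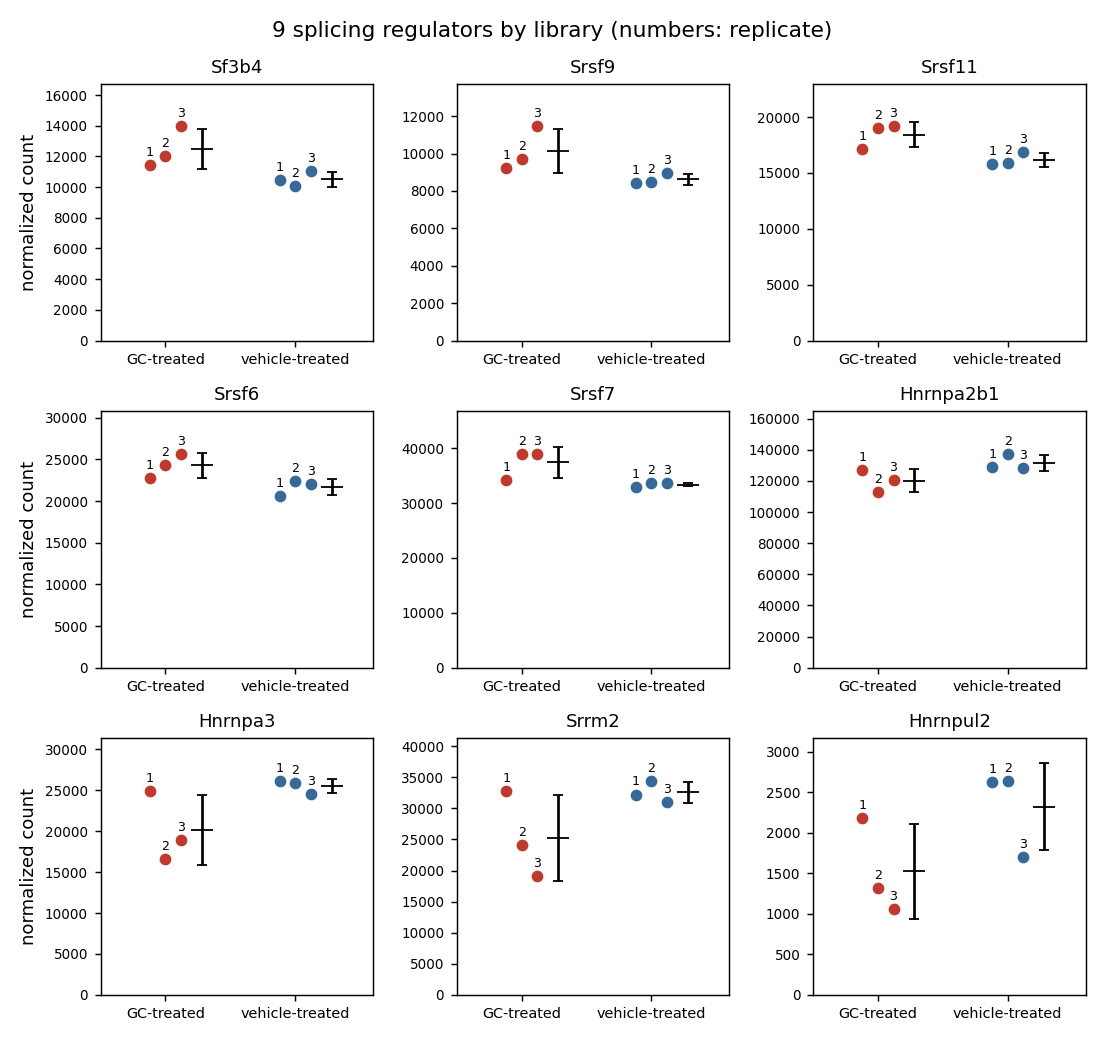
Normalized counts by library for the 9 splicing regulators with a limma p under 0.05 before adjustment or with groups that do not overlap (points, numbered by replicate; linear axis from 0), with the mean and SD of 3 libraries beside them. For Hnrnpa3, Srrm2 and Hnrnpul2 the point of GC-treated 1 lies near or among the vehicle-treated points (24891, 32760 and 2188 normalized counts).

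The TRA2 proteins are sequence-specific activators that bind purine-rich enhancers, and both had their lowest value in GC-treated 2. Tra2a had 4045, 2683 and 3039 normalized counts in the GC-treated and 4053, 4180 and 3584 in the vehicle-treated libraries. GC-treated 1 lay among the vehicle-treated libraries and the other GC-treated libraries lay below them, for a log2 fold change of -0.29 ± 0.15 (SE; limma, adjusted p = 0.62). The Tra2a value was -0.46 without GC-treated 1 and -0.16 without GC-treated 2. Tra2b had 34347, 29482 and 31215 against 35045, 31402 and 32295. The groups overlapped, and the log2 fold change was -0.056 ± 0.087 (limma, adjusted p = 0.82), with -0.12 without GC-treated 1 and -0.0059 without GC-treated 2.

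Among the hnRNP proteins, 9 of 20 had a positive and 11 a negative log2 fold change, and those of largest size were negative. Hnrnpa3, a close relative of Hnrnpa1, had 24891, 16647 and 18961 normalized counts in the GC-treated and 26152, 25848 and 24514 in the vehicle-treated libraries. GC-treated 2 and 3 lay below every vehicle-treated library while GC-treated 1 lay among them. The log2 fold change was -0.36 ± 0.13 (SE; limma, adjusted p = 0.62), and it was -0.52 without GC-treated 1 and -0.23 without GC-treated 2.

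Hnrnpul2, a scaffold-attachment-type hnRNP with a role in DNA end resection, had 2188, 1318 and 1065 normalized counts against 2630, 2643 and 1704. GC-treated 1 exceeded vehicle-treated 3, so the groups overlapped, and the log2 fold change was -0.65 ± 0.27 (SE; limma, adjusted p = 0.62). It was -0.94 without GC-treated 1 and -0.42 without GC-treated 3. Hnrnpa2b1, the highest member per kb, was the only one lower in every GC-treated library, with 127366, 113133 and 120333 normalized counts against 128821, 137600 and 128383. The separation rested on a narrow gap between GC-treated 1 and vehicle-treated 3, and the log2 fold change was -0.13 ± 0.079 (limma, adjusted p = 0.63). Without GC-treated 1 it was -0.17 and without GC-treated 2 it was -0.087. Its exons overlap those of Cbx3 and Nfe2l3 on the other strand.

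The remaining hnRNP genes had overlapping groups and limma p values of 0.052 or more before adjustment. Hnrnpa0 (-0.48), Hnrnpul1 (-0.21), Hnrnph1 (-0.15), Hnrnpdl (-0.11) and Hnrnph3 (-0.10) had the more negative log2 fold changes. Single libraries moved several of these: without GC-treated 1 Hnrnpa0 was -0.68, Hnrnpul1 -0.31, Hnrnph1 -0.24 and Hnrnph3 -0.22, without GC-treated 2 Hnrnpa0 was -0.24 and Hnrnph1 -0.080, without GC-treated 3 Hnrnph3 was -0.034, and without vehicle-treated 2 Hnrnpdl was -0.035. Hnrnpa1 (0.10), Hnrnpk (0.076), Hnrnpd (0.051), Hnrnpll (0.035), Hnrnpr (0.033), Hnrnph2 (0.033), Hnrnpu (0.031), Hnrnpf (0.013) and Hnrnpc (0.0023) had positive ones, and Hnrnpab (-0.047), Hnrnpm (-0.022) and Hnrnpl (-0.016) lay just below 0. Hnrnpll, the CD45 splicing factor of activated and memory T cells, had 12117, 11554 and 11519 normalized counts in the GC-treated and 11560, 10857 and 11953 in the vehicle-treated libraries, a coefficient of variation of 3.77%. Hnrnpl, its paralogue at the same CD45 exons, varied by 3.02%. Both were chosen for their CD45 role after their values were seen. Hnrnpa1 and Hnrnpa3 have near-identical copies in the genome between which counting could divide reads. By library, GC-treated 2 held the lowest value of 10 of the 20 hnRNP genes, with a median deviation of -0.10 on the log2 scale.

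For the 4 CLK kinases the GC-treated libraries lay far apart from each other. Clk1 had 5227, 5741 and 4216 normalized counts in the GC-treated and 4850, 5684 and 5367 in the vehicle-treated libraries, and Clk2 had 5145, 5403 and 3982 against 5182, 5225 and 5035. Clk3 had 5904, 6978 and 5580 against 6236, 6026 and 6388. Clk4 had 4241, 5519 and 4456 against 4007, 4451 and 4592. All 4 were highest in GC-treated 2, and Clk1, Clk2 and Clk3 were lowest in GC-treated 3. The GC-treated libraries thus spanned the whole range of Clk1, Clk2 and Clk3, and the median deviation of the family was 0.17 in GC-treated 2 and -0.22 in GC-treated 3 on the log2 scale. The log2 fold changes were -0.075 ± 0.13 for Clk1, -0.10 ± 0.12 for Clk2, -0.021 ± 0.10 for Clk3 and 0.12 ± 0.12 for Clk4 (SE; lowest adjusted p of the family by limma 0.74).

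Dexamethasone acts through the glucocorticoid receptor, whose response elements share the inverted repeat ACANNNTGT, which reads the same on both strands. In the 250 bases upstream of the canonical start in GRCm39 this pattern was found in 1 of 48 members (2.08%) and in 3.96% of 13707 promoters of the same length. The member was Clk2, and its window (chr3:89071848-89072097, plus strand) is shown with the match in capitals because it is the only one among these promoters.
Clk2 upstream window: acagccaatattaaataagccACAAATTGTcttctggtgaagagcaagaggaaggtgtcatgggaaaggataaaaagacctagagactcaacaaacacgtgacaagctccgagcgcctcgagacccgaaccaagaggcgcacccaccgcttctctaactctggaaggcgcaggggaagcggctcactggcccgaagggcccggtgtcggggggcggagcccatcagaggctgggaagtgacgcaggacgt

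Searched on both strands in the same windows, CCAAT was in 35.4% of members and 35.1% of all promoters, TATAAA in 2.08% and 7.92%, CCGGAAG (a core of ETS sites) in 14.6% and 9.14%, and GGGCGG (a core of Sp sites) in 62.5% and 46.8%. Motifs were counted separately, and none of them contains another. The median GC content of the windows was 59% for members and 56% for all promoters. Clk2, the member with the ACANNNTGT match, had overlapping groups as given above.

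The SF3A and SF3B subunits bind the branch site as part of the U2 snRNP, and 4 of the 6 SF3B genes had a positive log2 fold change. Sf3b4, which contacts RNA upstream of the branch site, had 11428, 12023 and 13951 normalized counts in the GC-treated and 10474, 10046 and 11016 in the vehicle-treated libraries. The groups did not overlap, and GC-treated 3 was again the highest. The log2 fold change was 0.24 ± 0.096 (SE; limma, adjusted p = 0.62), 0.16 without GC-treated 3 and 0.30 without GC-treated 1. Sf3b1, the scaffold of the complex and its most abundant subunit per kb, had 55076, 57421 and 50115 against 56140, 55304 and 61230, with a log2 fold change of -0.087 ± 0.084 (limma, adjusted p = 0.72). Sf3b1 values overlapped between the groups, with GC-treated 3 the lowest.

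Sf3b5 (0.18), Sf3b6 (0.046) and Sf3b2 (0.028) had positive log2 fold changes and Sf3b3 a negative one (-0.18), all with overlapping groups. Sf3b2 had the smallest coefficient of variation of all members, 2.23%. Sf3a3, the most abundant SF3A subunit, had 16304, 14350 and 17172 normalized counts in the GC-treated and 14681, 14943 and 16299 in the vehicle-treated libraries, so the groups overlapped (log2 fold change 0.056 ± 0.093, SE). Sf3a2 had 0.13 and Sf3a1 -0.025 on the log2 scale.

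Srrm2, a very large scaffold of nuclear speckles, had 32760, 24076 and 19076 normalized counts in the GC-treated and 32228, 34437 and 31018 in the vehicle-treated libraries. GC-treated 1 lay among the vehicle-treated libraries, and GC-treated 2 and 3 lay below all of them. The log2 fold change was -0.40 ± 0.17 (SE; limma, adjusted p = 0.62), with -0.60 without GC-treated 1 and -0.21 without GC-treated 3. Its partner Srrm1 had 12011, 10911 and 10715 against 11474, 11379 and 11521, and a log2 fold change of -0.033 ± 0.081 (limma, adjusted p = 0.89). Exons of Srrm2 overlap Elob on the other strand.

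**Figure D4:**
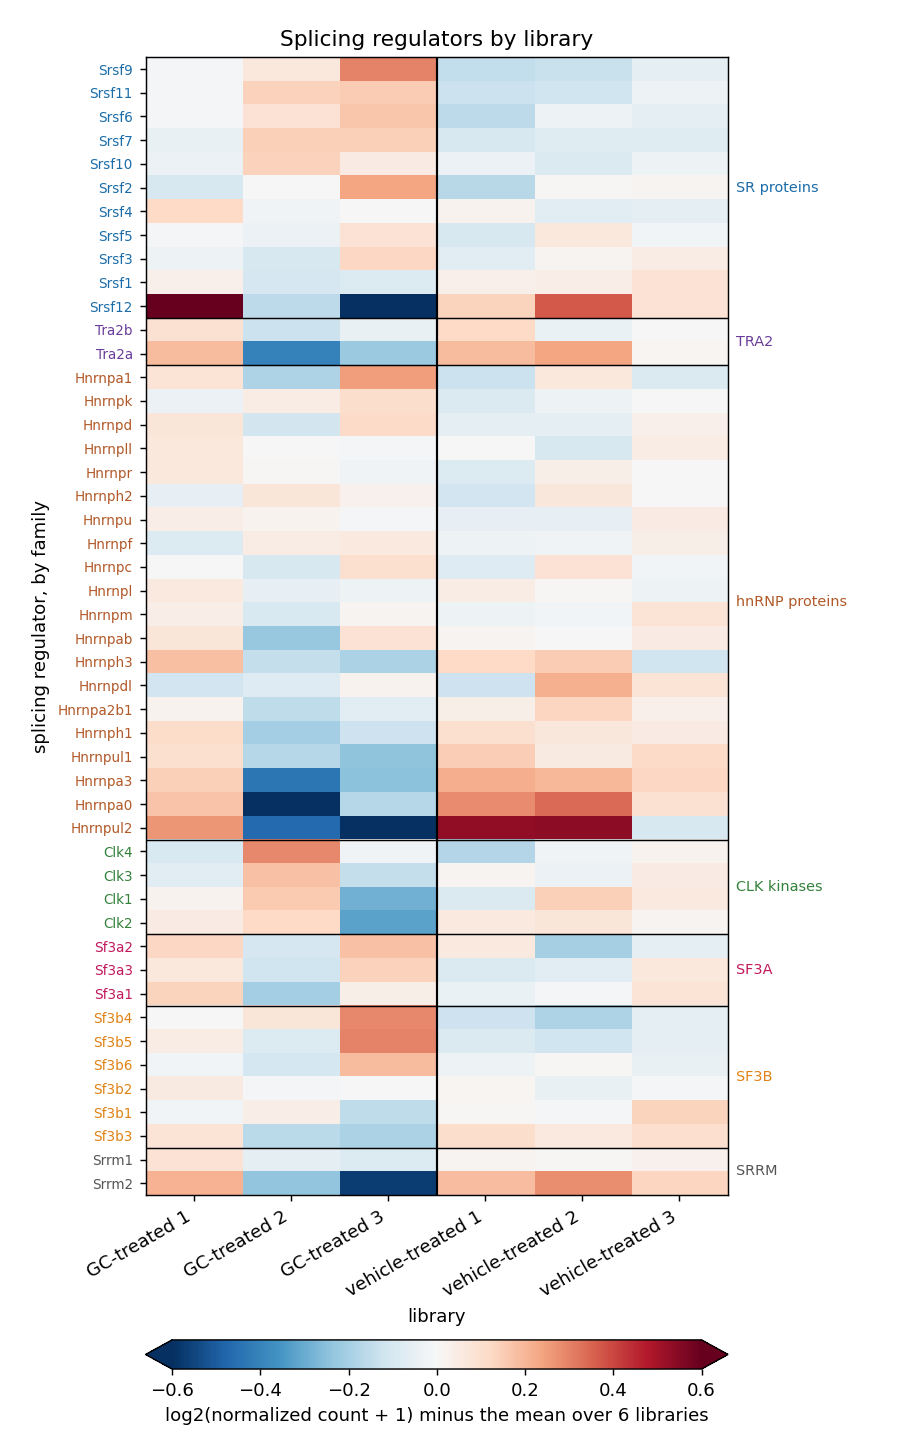
Log2(normalized count + 1) of each splicing regulator in each library minus its mean over 6 libraries (colour scale capped at ±0.6), by family, with GC-treated libraries left of the vertical line. Clk1 to Clk4 are highest in GC-treated 2, and Srrm2, Hnrnpa3, Hnrnpa0 and Hnrnpul2 are lower in GC-treated 2 and 3 but not in GC-treated 1.

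The counts before adjustment differed between fits that left out 1 library. GC-treated 1 was picked for its closeness to the vehicle-treated libraries in these same data. Higher counts without it are therefore to be expected. Without GC-treated 1, limma gave p under 0.05 for 5 members higher (Sf3b4, Srsf7, Srsf11, Srsf9 and Srsf6, 10.4% of members beside 8.34% of all genes) and 8 lower (Hnrnpa3, Srrm2, Hnrnpul2, Tra2a, Hnrnpul1, Sf3b3, Hnrnpa0 and Hnrnph1, 16.7% beside 12.2%). After adjustment that comparison called 2 genes higher (0.0172%) and 43 lower (0.369%), none of them a member, and the lowest adjusted p of a member was 0.054, for Hnrnpa3. No member had p under 0.05 before adjustment without GC-treated 3 (1.25% of all genes higher and 2.66% lower), without vehicle-treated 1 (0.953% and 1.98%) or without vehicle-treated 2 (0.678% and 1.67%). In those 3 fits, each with 1 library fewer, the log2 fold change of Hnrnpa3 was -0.32, -0.34 and -0.35, that of Hnrnpul2 -0.42, -0.55 and -0.54, and that of Sf3b4 0.16, 0.24 and 0.21. Without GC-treated 2 there were 2 higher and 0 lower (1.82% and 3.32% of all genes), and without vehicle-treated 3 there were 1 higher and 2 lower (2.31% and 4.24%). In each of these fits limma called 0 members after adjustment.

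Log2 fold changes varied with transcript length in these libraries. Over 11395 genes, Spearman's rho between the length of the canonical transcript and the log2 fold change was -0.36, and over the 48 members it was -0.25. Both are descriptions across genes that share the same 6 libraries. All genes shorter than 2000 bases had a median log2 fold change of 0.10, those of 2000 to 4000 bases 0.015 and those of at least 4000 bases -0.12. For the members the medians were 0.051 (8 genes), -0.0081 (24 genes) and -0.024 (16 genes). GC-treated 3 deviated most by length, with a median of 0.19 for the shortest and -0.19 for the longest genes. Srsf9 has a canonical transcript of 1170 bases and Srrm2 one of 8876 bases. Srsf6 (4755 bases, log2 fold change 0.16) and Tra2a (1921 bases, -0.29) go the other way. Of the 16 members of at least 4000 bases 7 had a positive and 9 a negative log2 fold change. Of the 8 below 2000 bases 6 were positive and 2 negative. The part of length in these differences was not tested.

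**Figure D5:**
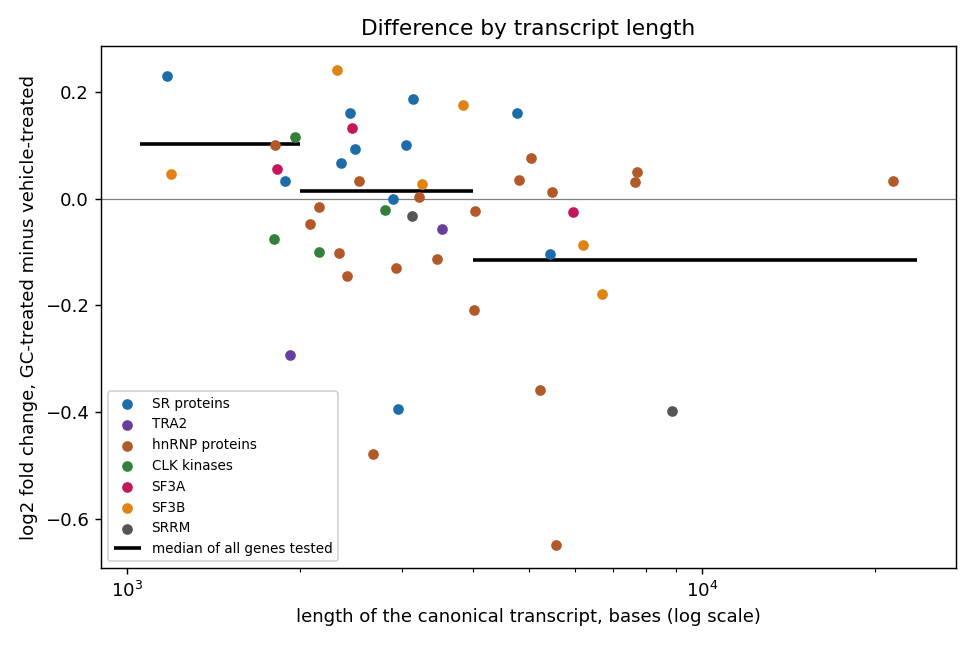
Log2 fold change (GC-treated minus vehicle-treated) against the length of the canonical transcript (log axis) for the 48 splicing regulators, coloured by family, with black lines for the median of all genes tested in 3 length ranges. The lines step down from 0.10 through 0.015 to -0.12, and Srsf9 at 1170 bases and Srrm2 at 8876 bases lie toward opposite corners. Srsf6 at 4755 bases (0.16) and Tra2a at 1921 bases (-0.29) go the other way.

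The rest of the splicing machinery also gave no call after adjustment by limma, edgeR or DESeq2. Of 50 core spliceosome genes 47 were tested, 27 with a positive and 20 with a negative log2 fold change; 1 was higher (2.13%, beside 2.12% of all genes) and 3 were lower (6.38%, beside 5.07%) at p under 0.05 before adjustment. In this list 10 genes (21.3%, beside 6.4%) were higher and 2 (4.26%, beside 6.4%) lower in every GC-treated library than in any vehicle-treated one. The genes of smallest p were Ddx17, an RNA helicase (-0.90 on the log2 scale), Prpf8, the scaffold of the catalytic core (-0.40), and Snrnp200, the helicase that unwinds the paired snRNAs during activation (-0.40), each with an adjusted p of 0.62 by limma. Without GC-treated 1 they were -1.22, -0.57 and -0.55. Ddx17 was -0.70 without GC-treated 2, and Prpf8 and Snrnp200 were -0.24 and -0.21 without GC-treated 3. The canonical transcripts of Ddx17, Prpf8 and Snrnp200 are 4726, 7479 and 10876 bases long. The 1 core gene higher before adjustment was Snrpc (794 bases), at 0.24 with an adjusted p of 0.62 by limma. The part of length in these values was not tested.

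Of 54 other splicing regulators 47 were tested, 18 positive and 29 negative, with 0 higher and 3 lower (6.38%) at p under 0.05 before adjustment. The 3 were Raly (-0.65), an hnRNP-like protein, Taf15 (-1.41), an RNA-binding protein, and Son (-0.35), a speckle scaffold like Srrm2. Each had an adjusted p of 0.62 by limma, and without GC-treated 1 they were -0.93, -2.06 and -0.50. Raly was -0.43 without GC-treated 2, and Taf15 and Son were -0.98 and -0.23 without GC-treated 3. The canonical transcripts of Raly, Taf15 and Son are 1757, 2074 and 8764 bases long. Taf15 had 902, 272 and 201 normalized counts in the GC-treated and 1018, 1338 and 689 in the vehicle-treated libraries. GC-treated 1 again exceeded a vehicle-treated library.

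Of 18 kinases, phosphatases and import factors of SR proteins 17 were tested, 4 positive and 13 negative, and 0 had p under 0.05 by limma, edgeR or DESeq2. Dyrk1a (-0.40), Dyrk1b (-0.45) and Ppp1ca (0.16) had the smallest p. All 17 genes of the NMD pathway, which degrades the transcripts that hold the exons shown, were tested, 5 positive and 12 negative, and none had p under 0.05 by any of the 3 tools. Magohb (0.27) and Rbm8a (0.19) of the exon junction complex and Upf3a (0.22) had the smallest p. Of 16 immediate early and heat shock genes 3 were higher (18.75%, beside 2.12% of all genes) and 0 lower (beside 5.07%) at p under 0.05 before adjustment. Of 11 glucocorticoid targets 9 had a negative and 2 a positive log2 fold change, with a median of -0.26. The values ran from -1.05 to 0.47, the highest being that of Dusp1 (limma, adjusted p = 0.62). By library, the median deviation of the targets was 0.087, -0.19 and -0.45 in GC-treated 1 to 3. It was 0.16, 0.63 and -0.022 in vehicle-treated 1 to 3, so the groups overlapped. Before adjustment 2 targets were higher (18.2%, beside 2.12%) and 3 lower (27.3%, beside 5.07%) by limma. After adjustment limma called 0 genes of these 2 lists, and DESeq2 called 1 target, as lower.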

How the data were processed

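Bulk RNA-Seq libraries (SMART v4 and Nextera XT kits, which do not mark strand) were aligned by the authors with STAR to GRCm39 and counted per gene with summarizeOverlaps; per the submitters' processing notes, bcl2fastq, STAR and DESeq2 were used (versions not stated). The authors deposited 1 table of 14051 genes whose unit is a normalized signal, each library's counts divided by 1 size factor. Dividing each column by its smallest value above 0 gave whole reads (100% of values, tolerance 0.001), and these reads were recovered and tested as an alternative; on them edgeR called 0 genes and DESeq2 2 genes.

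The main test was limma 3.58.1 with a mean-variance trend on log2(value + 1), in R 4.3.3, fitted to the 11649 genes that reached a value of 10 in 3 or more libraries; p-values were adjusted over all of them by Benjamini-Hochberg with a threshold of 0.05. Fold changes are on that scale, and those of low genes can be larger or smaller than by edgeR. The log2 fold change by limma and by edgeR was -0.40 and -0.25 for Srsf12, -1.41 and -1.14 for Taf15, and -0.91 and -0.96 for Hba-a1. Alternatives were edgeR 4.0.16, DESeq2 1.42.0, TMM or library-total scaling, other filters (none, 100) and pseudocounts (0.5, 5), limma without a trend, a block for the replicate number, and fits that omit 1 library at a time. Tests were tested on simulated data first.

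Groups came from the sample labels. Nothing says that replicates are separate animals, so p-values measure the spread between libraries, which may be technical. No 2 libraries agreed within counting noise. Members and gene lists were chosen with earlier results of these data known. All members are named; values by library are given for those with p under 0.05 before adjustment, with groups that do not overlap, for CLK and TRA2 genes and for the highest per kb of each family. Of other splicing lists up to 3 genes of smallest p are named, with Snrpc as the 1 core gene higher before adjustment. Of cell type lists the gene of highest mean is named, and of the glucocorticoid targets the one of highest log2 fold change. Of a list of 9 nuclear noncoding RNAs, 0 are in the table of gene counts, so they could not be tested. Gene models and sequences are from GRCm39 with Gencode M39, in which all 48 members matched 1 gene.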

Additional observations from a re-analysis of the deposited data

How the results depend on the processing

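No splicing regulator was called under the main fit or any of the 16 alternatives, and the median log2 fold change of the 48 members stayed within 1 SD of the library spread (0.063) in all of them. Over all genes, 2 were called lower by DESeq2 and 1 by limma without a trend, against 0 by limma with one, and leaving out each library gave 0 to 2 genes higher and 0 to 43 lower, the highest counts without GC-treated 1. Of the members, 31 kept the sign of their fold change under all alternatives and 17 did not, all with intervals that hold 0. Hnrnpc was -0.0038 when reads were divided by library totals, and Srsf3 was 0.00030 by edgeR and 0.0026 by DESeq2. With each library left out, log2 fold changes ran from -0.17 to 0.051 for Clk1, -0.19 to 0.035 for Clk2, -0.11 to 0.047 for Clk3, -0.10 to 0.056 for Hnrnpab, -0.046 to 0.050 for Hnrnpc, -0.013 to 0.056 for Hnrnpf, -0.016 to 0.074 for Hnrnph2, -0.048 to 0.0043 for Hnrnpl, -0.0034 to 0.066 for Hnrnpll, -0.048 to 0.018 for Hnrnpm, -0.00093 to 0.058 for Hnrnpr, -0.10 to 0.071 for Sf3a1, -0.037 to 0.11 for Sf3b6, -0.80 to 0.027 for Srsf12, -0.0032 to 0.16 for Srsf2, -0.063 to 0.046 for Srsf3 and -0.0071 to 0.074 for Srsf5. Members that kept their sign also moved with 1 library, among them Clk4 (0.0014 to 0.19), Hnrnpa1 (0.0010 to 0.22), Hnrnpd (0.0063 to 0.12), Sf3a3 (0.00039 to 0.13) and Sf3b5 (0.069 to 0.26). The cause was not tested. At p under 0.05 before adjustment, limma without a trend gave 0 members in either direction and edgeR 1 lower in place of 3 (beside 3.79% of all genes). The share of all genes was not computed for the fit without a trend, so its count cannot be read as particular to the members. With the replicate number as a block, limma called 0 genes, and before adjustment 2 members were higher (4.17%, beside 2.04% of all genes) and 4 lower (8.33%, beside 6.40%). Deviations of same-numbered libraries had correlations of 0.063, -0.14 and 0.13, and those of differently numbered libraries ran from -0.25 to 0.22. With 3 libraries per group such values cannot decide if the numbers pair the libraries, and the labels do not say. Depth limits Srsf12 most, at 40 to 129 normalized counts; the other 47 members had a mean of at least 1000.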
